A study of Mus musculus with 4 samples.

Results

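The Ms4a genes encode small membrane proteins that cross the membrane 4 times, and 8 mouse members of this family were examined in RNA-seq libraries of cultured astrocytes: Ms4a4a, Ms4a4b, Ms4a4c, Ms4a4d, Ms4a6b, Ms4a6c, Ms4a6d and Ms4a7. They were matched by their exact symbol in the deposited table of 25393 genes. Of the 8 members, 6 have a row in that table and 5 of these reached the minimum mean of 1 normalized count for the test across genes. The expression of Ms4a4a and Ms4a4b was not analysed here, and only their promoter windows are described. The family was chosen by the values of Ms4a4d, which is at 0 in both libraries labelled KO, so the differences between genotypes below are a description of the members and no test is given for them.

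The study compared astrocytes isolated from wild-type (WT) mice and from mice with a constitutive deletion of Tet1, the enzyme that oxidizes 5-methylcytosine to 5-hydroxymethylcytosine in DNA. Each genotype, WT and tet1-/-, has 2 libraries, and all 4 came from untreated C57BL/6 pups at postnatal day 1. Cells of cortex and hippocampus from 2 mice were grown for about 7 days in 1 flask, shaken at 260 rpm to remove loosely attached cells, and kept for 24 h more before total RNA was extracted. The study describes its RNA-seq repeats as biological and gives more of them per genotype than the 2 libraries held here. Nothing in the labels ties a library to an isolation of its own. By design a constitutive deletion would affect every cell of a pup and not astrocytes alone.

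The founding members of the Ms4a family are CD20 (Ms4a1) of B lymphocytes and the beta chain of the high-affinity IgE receptor (Ms4a2) of mast cells. Many other members are known from monocytes, macrophages and microglia, where they sit in the plasma membrane or in endosomes and associate with receptors that signal through the Fc receptor gamma chain or related adaptors. Ms4a7 is widely used to mark macrophages, those at the borders of the brain among them, and Ms4a4b is known from T lymphocytes.

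The family lies in 1 cluster on mouse chromosome 19 (GRCm38), which in GENCODE M21 holds 19 Ms4a genes between positions 10962293 and 11640851, a stretch of 678.6 kb. The 6 listed members span 283.8 kb of it, from Ms4a7 at one end to Ms4a6d at the other. Ms4a7 (ENSMUSG00000024672) lies at chr19:11321039-11336146 on the minus strand and Ms4a6d (ENSMUSG00000024679) at chr19:11586604-11604849, also on the minus strand. Ms4a4c (ENSMUSG00000024675, chr19:11404770-11427246), Ms4a6c (ENSMUSG00000079419, chr19:11469366-11482192), Ms4a6b (ENSMUSG00000024677, chr19:11516512-11531256) and Ms4a4d (ENSMUSG00000024678, chr19:11536801-11558467) are on the plus strand.

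The promoters of 4 listed members are shown so that Ms4a4d, the member at 0 in both libraries labelled KO, can be set beside its neighbours in the cluster. Each run covers 250 bases before to 50 after a RefSeq start on GRCm38.p6. The RefSeq starts used for Ms4a6b and, in the counts below, for Ms4a4c lie inside the genes as deposited (chr19:11516512-11531256 and chr19:11404770-11427246). Capitals mark GGAAGT, a core of PU.1 and other ETS factor sites, and GAAANNGAA, the spaced repeat of interferon-responsive elements, each on either strand. PU.1 is the factor that sets up the myeloid lineage. The windows are chr19:11536544-11536843 on the plus strand (Ms4a4d), chr19:11336097-11336396 on the minus strand (Ms4a7), chr19:11469118-11469417 on the plus strand (Ms4a6c) and chr19:11518309-11518608 on the plus strand (Ms4a6b).
Ms4a4d: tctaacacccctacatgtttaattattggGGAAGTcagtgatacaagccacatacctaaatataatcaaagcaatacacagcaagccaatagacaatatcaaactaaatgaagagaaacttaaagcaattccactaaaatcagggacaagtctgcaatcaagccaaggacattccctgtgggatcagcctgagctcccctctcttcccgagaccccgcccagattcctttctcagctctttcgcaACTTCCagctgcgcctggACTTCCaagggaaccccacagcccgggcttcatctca
Ms4a7: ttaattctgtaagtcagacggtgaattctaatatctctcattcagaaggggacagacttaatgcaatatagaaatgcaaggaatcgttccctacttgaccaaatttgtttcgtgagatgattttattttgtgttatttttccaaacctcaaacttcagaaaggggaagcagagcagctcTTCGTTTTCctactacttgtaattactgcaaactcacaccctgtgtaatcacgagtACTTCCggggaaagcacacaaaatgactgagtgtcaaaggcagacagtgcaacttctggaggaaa
Ms4a6c: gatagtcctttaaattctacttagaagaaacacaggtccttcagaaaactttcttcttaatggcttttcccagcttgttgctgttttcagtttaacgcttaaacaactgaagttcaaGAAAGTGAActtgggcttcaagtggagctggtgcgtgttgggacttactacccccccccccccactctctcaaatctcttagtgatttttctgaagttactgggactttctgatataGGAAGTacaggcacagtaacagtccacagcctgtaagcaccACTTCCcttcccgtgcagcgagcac
Ms4a6b: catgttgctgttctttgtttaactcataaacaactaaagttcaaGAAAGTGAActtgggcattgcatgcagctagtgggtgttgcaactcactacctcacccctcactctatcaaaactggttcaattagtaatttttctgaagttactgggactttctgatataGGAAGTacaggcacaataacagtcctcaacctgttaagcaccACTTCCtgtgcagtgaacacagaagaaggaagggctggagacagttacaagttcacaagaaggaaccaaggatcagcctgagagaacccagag

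GGAAGT occurs in 6 of the 8 RefSeq windows of the members (Ms4a7 has 2 starts, and Ms4a6d has no entry), and in 23.8% of all 32851 promoter windows of this length. It stands 3 times in the Ms4a4d window, at positions -221, -5 and 13 from the start. GAAANNGAA occurs in 4 of the 8 windows, those of Ms4a6b and Ms4a6c and both of Ms4a7, against 8.56% of all windows. The longer PU.1 form GAGGAAGT, which contains GGAAGT, occurs in 0 of the 8 windows and in 3.2% of all, TTCNNNGAA in 0 and 8.3%, and TATAAA in 1 (Ms4a4b) and 13.6%. The motifs were chosen after these promoters were seen, so the shares are no test of enrichment. Such letter matches are a description and not binding sites, and neighbouring paralogs share sequence by descent. Ms4a6b and Ms4a6c are a plain case: their windows hold an identical run of 48 bases, which starts at position -49 from the Ms4a6c start and -118 from the Ms4a6b start and carries a GGAAGT in each. CpG, the substrate of the Tet enzymes once it is methylated, was counted in these windows. There are 5 in the Ms4a4d window, 6 in the Ms4a7 window shown, 1 in its other window, 3 in that of Ms4a4a, 4 in that of Ms4a6c and 0 in those of Ms4a6b, Ms4a4b and Ms4a4c, where the median of all windows is 7 (quartiles 3 and 20). The windows of Ms4a4d, Ms4a6c and Ms4a4a and the shown one of Ms4a7 lie within or at these quartiles, and the others lie below. No methylation was measured in these libraries. The study separately mapped 5-hydroxymethylcytosine across the genome in WT and KO astrocytes, and that map was not used here.

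The WT libraries hold 18749610 and 22673555 reads on genes, and those labelled KO 20702980 and 22403163. The values are normalized counts, that is, reads on a gene divided by a size factor of the library, so that 1 read is worth 0.901 to 1.07 normalized counts. Tet1 itself was at 266 and 121 in WT against 173 and 463 in the libraries labelled KO, called KO-labelled from here on (limma adjusted p = 0.691), so the groups overlap and the label is not borne out by the count of the whole gene. The study itself reports that Tet1 mRNA was nearly absent from its KO astrocytes. It also reports a lower global level of 5-hydroxymethylcytosine by dot blot. Which exon was deleted is not given in the sources used here, so reads from the rest of the gene may remain. Xist, looked at after its values were seen, was at 8.54 and 0.92 in WT against 2896 and 13367 in the KO-labelled libraries, so that genotype label and sex of the pups cannot be told apart. The summed markers of astrocytes stood above those of each blood cell type in every library, with 10 of 10 listed and levels of 157902, 157126, 259251 and 46837 normalized counts in the order WT replicate 1, WT replicate 2, KO replicate 1, KO replicate 2. Their median log2 difference was -0.63 and DESeq2 called 0 of the 10, as did limma and edgeR. Unadjusted limma p was under 0.05 for 3032 of all 22094 tested genes and for 2 of these 10 markers. By their values, 5 of the 10 were lower in both KO-labelled libraries, 1 was higher and 4 overlapped. Over all tested genes 25.4% were lower in both and 22.5% higher. Gfap, the astrocyte filament, was at 58004 and 67297 in WT against 174853 and 9945 in the KO-labelled libraries and made up much of the sums. The glutamate transporter gene Slc1a3 was at 40855 and 43257 against 28836 and 18194, and the water channel gene Aqp4 at 16135 and 11461 against 10259 and 3337.

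Ms4a4d was measured in both WT libraries and in neither KO-labelled library. It had 93 and 94 reads, or 99.2 and 86.4 normalized counts, in WT, compared with 0 reads in both KO-labelled libraries. The WT libraries are close together and the groups lie wholly apart. The WT mean was 92.8 ± 9.04 (SD, n = 2). On reads pooled within each group, WT was at least 31.5-fold above the level that 0 reads allow (3 reads in a library, 2.70 to 3.21 normalized counts). Ms4a4d also had the highest level per length of the members, 3.28 and 2.74 FPKM in WT (reads per kilobase of gene per 1000000 reads on genes).

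Ms4a7, the macrophage marker, had 51 and 201 reads in WT against 3 and 1 in the KO-labelled libraries. These were 54.4 and 185 normalized counts against 3.21 and 0.901. WT replicate 2 is the high library and both KO-labelled libraries are close to the limit of detection. The pooled fold between WT and the KO-labelled libraries was 63.6 (95% counting interval 24.5 to 235), on a WT mean of 120 ± 92.2 and a mean of 2.06 ± 1.63 (SD, n = 2 each) in the KO-labelled libraries.

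Ms4a6d, a myeloid member, had 17 and 107 reads in WT against 0 and 7 in the KO-labelled libraries, or 18.1 and 98.4 normalized counts against 0 and 6.31. It was the most uneven member within WT, and the groups do not overlap. The fold was 17.9 (8.42 to 45.4).

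Ms4a6c and Ms4a6b, the close relatives of Ms4a6d, were lower in level. Ms4a6c had 7 and 23 reads in WT against 0 and 4 in the KO-labelled libraries, which are 7.47 and 21.2 normalized counts against 0 and 3.61 and a fold of 7.57 (2.67 to 29.6). Ms4a6b had 8 and 20 reads in WT against 2 and 4 in the KO-labelled libraries, which are 8.54 and 18.4 normalized counts against 2.14 and 3.61 and a fold of 4.71 (1.91 to 13.9). In both genes the libraries of each group lie on their own side, but at these depths the size of the difference is loosely set. Ms4a4c had 1 read in each WT library and 0 in each KO-labelled library, all under the limit, so that no fold is given and no difference was detectable at this depth.

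**Figure D1:**
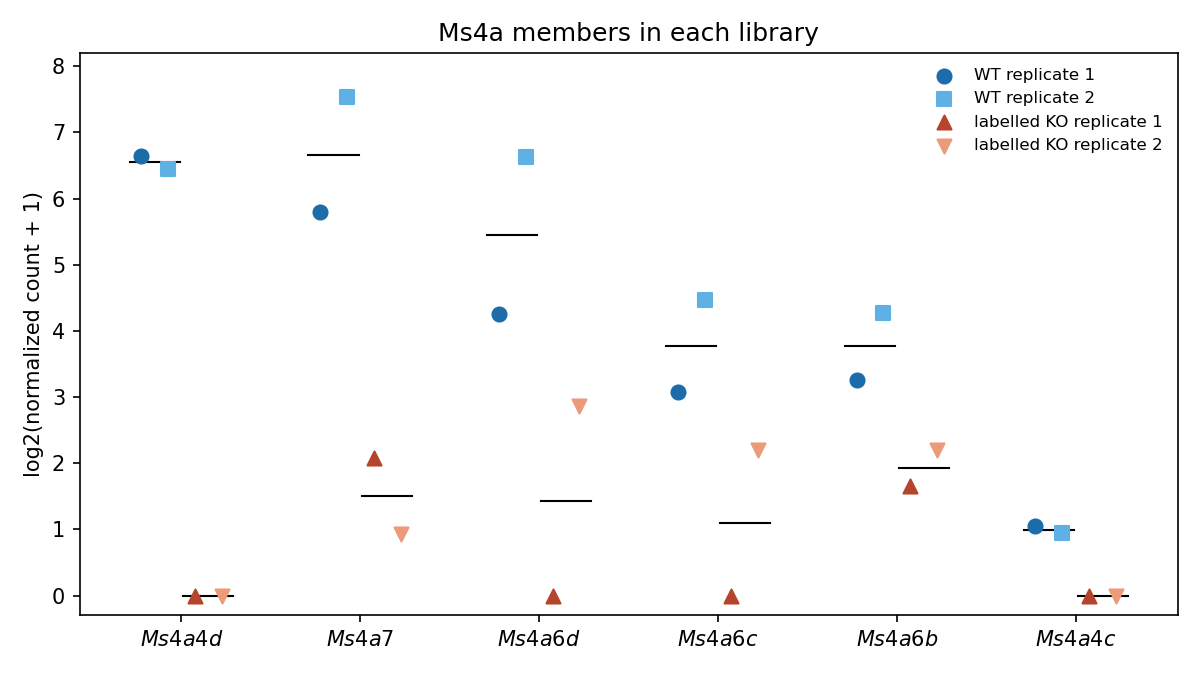
Level of the 6 listed Ms4a members in each library, as log2(normalized count + 1), with 1 point per library. Each member with a mean over 1 is higher in both WT libraries than in both KO-labelled libraries, and the WT libraries stand together for Ms4a4d (99.2 and 86.4 normalized counts) and apart for Ms4a7 (54.4 and 185) and Ms4a6d (18.1 and 98.4).

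In the plot of levels by library, each of the 5 tested members is lower in both KO-labelled libraries than in both WT libraries, while Ms4a4c is under the limit in all 4. Over all 22094 tested genes 25.4% have this pattern, and since the members were selected on the same contrast nothing is read from the difference. On the scale of log2(normalized count + 1) the differences, KO-labelled libraries minus WT, were -6.55 ± 0.69 (SE) for Ms4a4d, -5.16 ± 0.90 for Ms4a7, -4.01 ± 1.32 for Ms4a6d, -2.67 ± 1.07 for Ms4a6c and -1.84 ± 0.79 for Ms4a6b. Their median was -4.01, also with Ms4a4d set at its bound, beside a median of -0.07 over all tested genes. The value for Ms4a4d depends on the pseudocount and is no bound. Leaving out 1 library moved the differences of the sparse members: Ms4a6d was at -2.58 without KO replicate 1 and -5.45 without KO replicate 2, and Ms4a6c at -1.57 and -3.78. Ms4a6b was at -1.33 without WT replicate 2 and -2.35 without WT replicate 1, and Ms4a7 at -4.29 and -6.04.

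Per length, the WT means ran from Ms4a4d at 3.01 ± 0.381 FPKM (SD, n = 2) through Ms4a6d at 1.62 ± 1.55, Ms4a7 at 1.30 ± 0.976, Ms4a6c at 0.338 ± 0.221 and Ms4a6b at 0.146 ± 0.072 to Ms4a4c at 0.028. Ms4a4d was well above Ms4a6d and Ms4a7 in WT replicate 1, but in replicate 2 it was level with Ms4a6d (2.74 and 2.72 FPKM), so that these first neighbours in the order do not differ beyond their spread. Ms4a4d, Ms4a6d and Ms4a7 were above Ms4a6c and Ms4a6b in both WT libraries. Ms4a6d and Ms4a7 do not differ beyond their spread and stand in opposite order in the 2 WT libraries (0.523 and 0.611 FPKM in replicate 1, 2.72 and 1.99 in replicate 2). In bulk RNA, fewer cells that express a gene and less of its RNA per cell cannot be told apart, and these levels are averages over the whole flask.

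Summed over the 6 listed members, the libraries held 177 and 446 Ms4a reads in WT against 5 and 16 in the KO-labelled libraries. Per 1000000 reads on genes these are 9.44 (95% exact interval 8.10 to 10.9) and 19.7 (17.9 to 21.6) against 0.242 (0.078 to 0.564) and 0.714 (0.408 to 1.16). The fold on the pooled reads was 29.9 (19.4 to 48.7). Without Ms4a4d, the gene for which the family was chosen, the sums were 84 and 352 reads against 5 and 16, a fold of 20.96 (13.5 to 34.2). These intervals cover counting error only.

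The members did not move together between the WT libraries. Ms4a4d was level, with a ratio of WT replicate 2 to WT replicate 1 of 0.871 (95% counting interval 0.647 to 1.17). Ms4a6d was 5.42 times higher in WT replicate 2 (3.23 to 9.66), Ms4a7 3.40 times (2.49 to 4.71), Ms4a6c 2.83 times (1.18 to 7.81) and Ms4a6b 2.15 times (0.909 to 5.66). The intervals of Ms4a4d and of Ms4a7 or Ms4a6d do not meet, while that of Ms4a6b includes 1. Without Ms4a4d the summed members were 3.61 times higher in WT replicate 2 (2.84 to 4.64). Over the 16211 genes with 20 or more WT reads the median ratio was 1.05, and the range from the 10th to the 90th percentile was 0.528 to 1.69, so that Ms4a4d lies inside this range and the other 4 tested members above it.

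This changed the make-up of the family within WT. Ms4a4d took 52.5% of the Ms4a reads in WT replicate 1 (95% exact interval 44.9 to 60.1) and 21.1% in WT replicate 2 (17.4 to 25.2). Ms4a7 went the other way, from 28.8% (22.3 to 36.1) to 45.1% (40.4 to 49.8). The share of Ms4a6d was 9.60% (5.70 to 14.9) in WT replicate 1 and 24.0% (20.1 to 28.2) in WT replicate 2. Ms4a6b kept to 4.52% and 4.48%, and Ms4a6c to 3.95% and 5.16%. The 5 reads of KO replicate 1 were 3 of Ms4a7 and 2 of Ms4a6b, and the 16 of KO replicate 2 were 7 of Ms4a6d, 4 each of Ms4a6b and Ms4a6c and 1 of Ms4a7, too few to set a make-up.

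**Figure D2:**
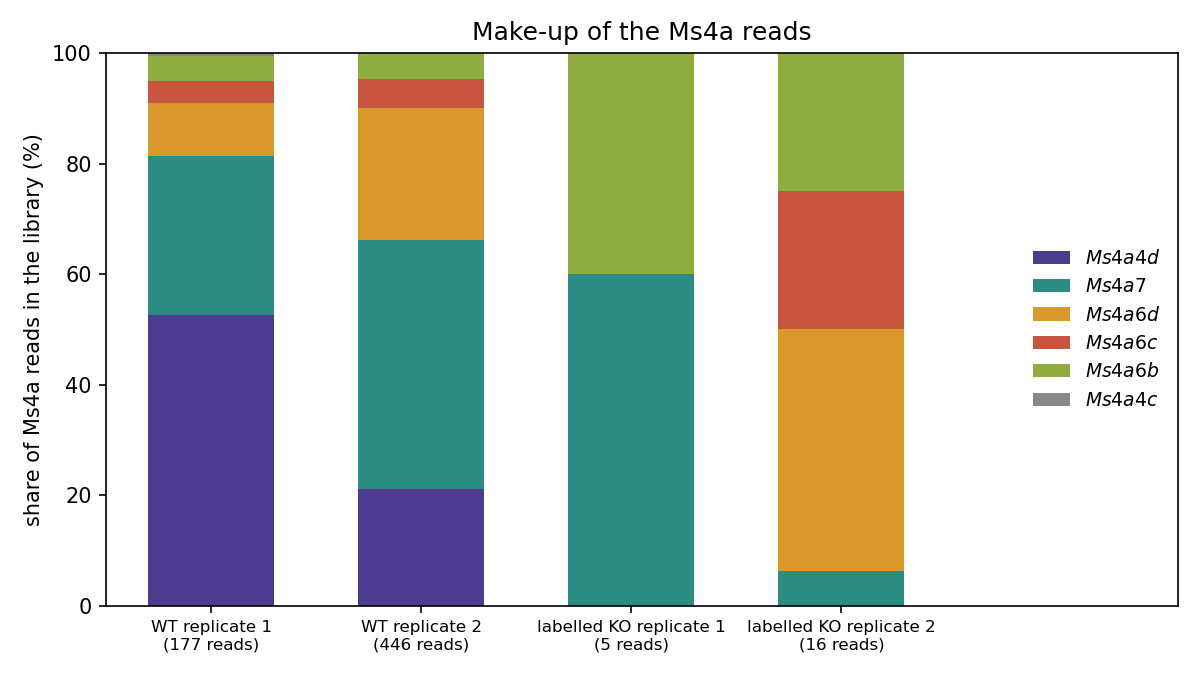
Share of each member in the Ms4a reads of a library (percent), with the number of Ms4a reads under each bar. Ms4a4d makes up 52.5% of the reads in WT replicate 1 and 21.1% in WT replicate 2, and no read in the KO-labelled libraries, which rest on 5 and 16 reads.

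Marker genes of microglia and macrophages were also lower in the KO-labelled libraries by DESeq2, though not by limma or edgeR, and their part in the members' values was not tested. Of 20 markers of microglia and macrophages, all listed, 19 were lower in both KO-labelled libraries than in both WT libraries. Over all tested genes 25.4% have this pattern. The median log2 difference of the 20 markers was -3.43, and DESeq2 called 15 of them lower, where 3.63% of all tested genes were called lower and 1.29% higher. The main test, limma, called 0 of the 20 after adjustment (16 at an unadjusted p under 0.05) and edgeR 0, and over the whole table limma called 0% of the genes (3032 unadjusted), edgeR 0 (2733 unadjusted) and DESeq2 1088. Summed, these markers were at 3680 and 7100 normalized counts in WT against 1143 and 744 in the KO-labelled libraries, and none of them was at 0 in both KO-labelled libraries. Adgre1, which encodes the macrophage surface protein F4/80, was at 637 and 1423 in WT against 6.42 and 45.1 in the KO-labelled libraries (DESeq2 adjusted p = 9.45e-08). Laptm5, a lysosomal protein of blood cells, fell by 3.41 on the log2 scale in DESeq2 (adjusted p = 1.98e-05).

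The ratio between the WT libraries was set beside that of these markers. All 19 microglia and macrophage genes with 20 or more WT reads were higher in WT replicate 2, with a median ratio of 2.41 (range 1.06 to 18.1), and 18 had an interval above 1. The upper end is Tmem119 alone, on 2 and 42 WT reads, and the next highest marker is Itgam at 3.69. The ratios of Ms4a7, Ms4a6c and Ms4a6b lie inside the range also without Tmem119. That of Ms4a6d, 5.42, lies above every one of these markers but Tmem119, and that of Ms4a4d, 0.871, lies under the range. Of 12 interferon-induced genes, 3 were higher in WT replicate 2, with a median ratio of 0.954 and a range of 0.448 to 1.36, and the ratio of Ms4a4d falls within it. The 10 astrocyte markers had a median ratio of 0.928 (0.443 to 1.47), which also takes in Ms4a4d, so that the ratio does not set these lists apart for this gene. Ratios between 2 libraries are a description, and the genes of each share the same libraries.

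**Figure D3:**
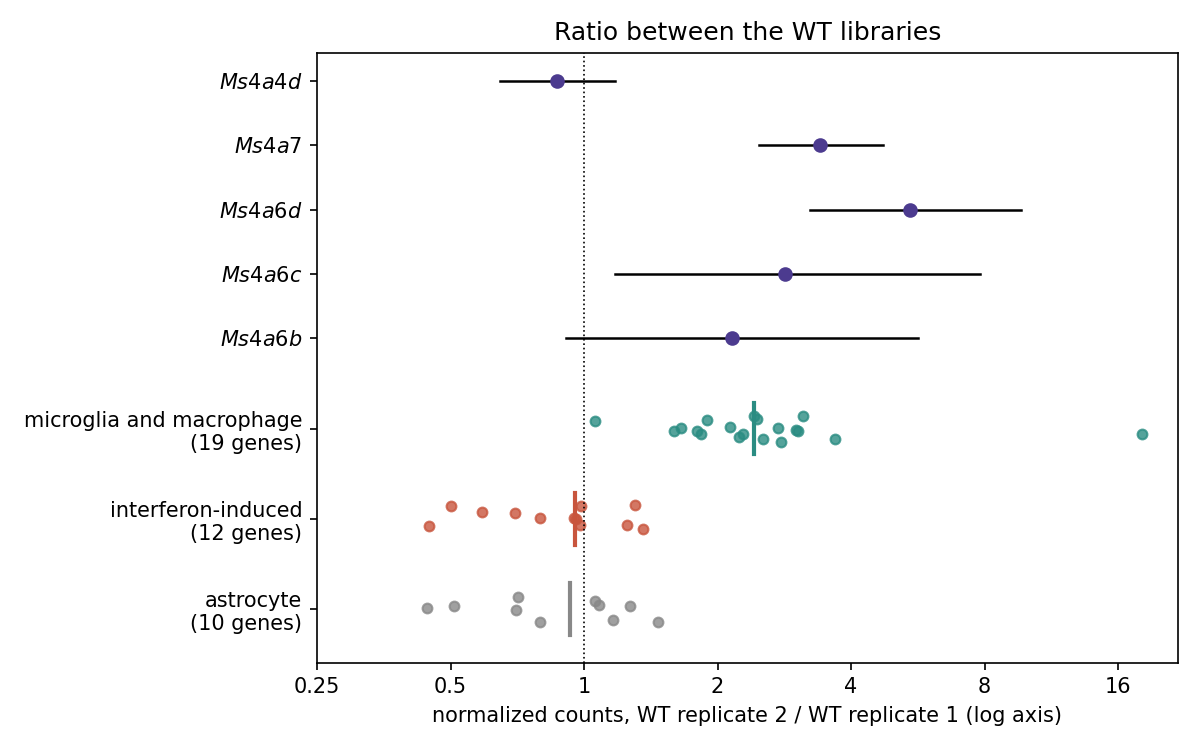
Ratio of the normalized counts of WT replicate 2 to WT replicate 1 on a log axis, for the Ms4a members with their 95% counting intervals and for genes of the marker lists as 1 point per gene. Ms4a4d lies at 0.871 and the other tested members between 2.15 and 5.42. The microglia and macrophage markers lie between 1.06 and 3.69, but for Tmem119 at 18.1.

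The 12 interferon-induced genes were lower in both KO-labelled libraries throughout, where 25.4% of all tested genes were, with a median log2 difference of -5.13. DESeq2 called 12 of 12 lower, beside 3.63% of all tested genes, and limma and edgeR called 0 after adjustment. At an unadjusted p under 0.05, limma had 12 of the 12, beside 3032 of all 22094 tested genes. The summed level of the 12 was 35412 and 28660 normalized counts in WT against 1869 and 1731 in the KO-labelled libraries. Ifit3, an antiviral protein induced by interferon, was at 12257 and 7201 against 713 and 256, Bst2 (tetherin), which holds budding viruses at the cell surface, at 5870 and 7966 against 647 and 830, and Oasl2 at 5378 and 4282 against 50.3 and 136.

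Markers of macrophages at the brain's borders, the cells for which Ms4a7 is best known, were uneven. Of 9 genes, 8 are listed and 7 were tested. Over all tested genes, 25.4% were lower in both KO-labelled libraries and DESeq2 called 3.63% lower. Of the 7, 4 were lower in both KO-labelled libraries and 3 overlapped. DESeq2 called 2 of the 7 lower (2 without an adjusted p), and limma and edgeR called 0 of these border markers. Unadjusted, limma had 3032 of all 22094 tested genes and 4 of these 7 border markers. Their median log2 difference was -2.28, or -1.17 with the 2 genes at 0 in both KO-labelled libraries, Mrc1 and Folr2, set at their bounds. The sums were 329 and 986 in WT against 421 and 46.9 in the KO-labelled libraries, the 421 resting on F13a1, the A chain of coagulation factor XIII, at 366. Siglec1, a sialic acid receptor of macrophages, was at 92.8 and 315 against 3.21 and 1.80 (DESeq2 adjusted p = 7.27e-08), and Stab1, a scavenger receptor, at 99.2 and 583 against 13.9 and 22.5 (adjusted p = 1.37e-04).

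Other blood cells left few counts. Monocyte and neutrophil markers (2 of 8 listed) summed to 7.47 and 40.5 in WT against 0 and 2.70 in the KO-labelled libraries. Those of T and NK cells (2 of 10 listed), where Ms4a4b is at home, summed to 43.7 and 69.0 against 30.0 and 18.0. B cell markers (7 of 7 listed, 5 tested, median -0.66) summed to 14.9 and 20.2 against 8.56 and 15.3, and mast cell markers (2 of 7 listed) to 18.1 and 22.1 against 31.0 and 2.70. None of these 4 lists had a gene called by limma, edgeR or DESeq2, and DESeq2 gave no adjusted p for the 5 tested B cell genes. At an unadjusted p under 0.05, limma had 1 gene of the monocyte and neutrophil list and 0 of the other 3. Over all 22094 tested genes it had 3032.

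Genes whose products are known or proposed to work with Ms4a proteins were mostly lower in the KO-labelled libraries as well. Of 7 such genes 6 are listed, with a median log2 difference of -3.17. In both KO-labelled libraries 5 of the 6 were lower, where 25.4% of all tested genes were. DESeq2 called 4 of the 6 lower, beside 3.63% of all tested genes, and limma and edgeR called 0. Unadjusted, limma had 4 of the 6, beside 3032 of all 22094 tested genes. Fcer1g, the Fc receptor gamma chain, was at 73.6 and 266 normalized counts in WT against 11.8 and 18.9 in the KO-labelled libraries (DESeq2 adjusted p = 0.00143). Tyrobp and Trem2, an adaptor and its lipid-sensing receptor on microglia and also members of the microglia list, were at 99.2 and 244 against 17.1 and 13.5, and at 77.9 and 124 against 7.49 and 3.61. Clec7a (dectin-1), a receptor for fungal glucans, was the 1 called partner that was not higher in WT replicate 2, at 60.8 and 38.6 against 5.35 and 3.61 (adjusted p = 0.00902). Syk, the kinase downstream of these receptors, overlapped between groups at 120 and 272 against 102 and 163, and Tnfrsf18 (GITR) was at 110 and 73.6 against 20.3 and 46.0 and was not called (adjusted p = 0.311).

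**Figure D4:**
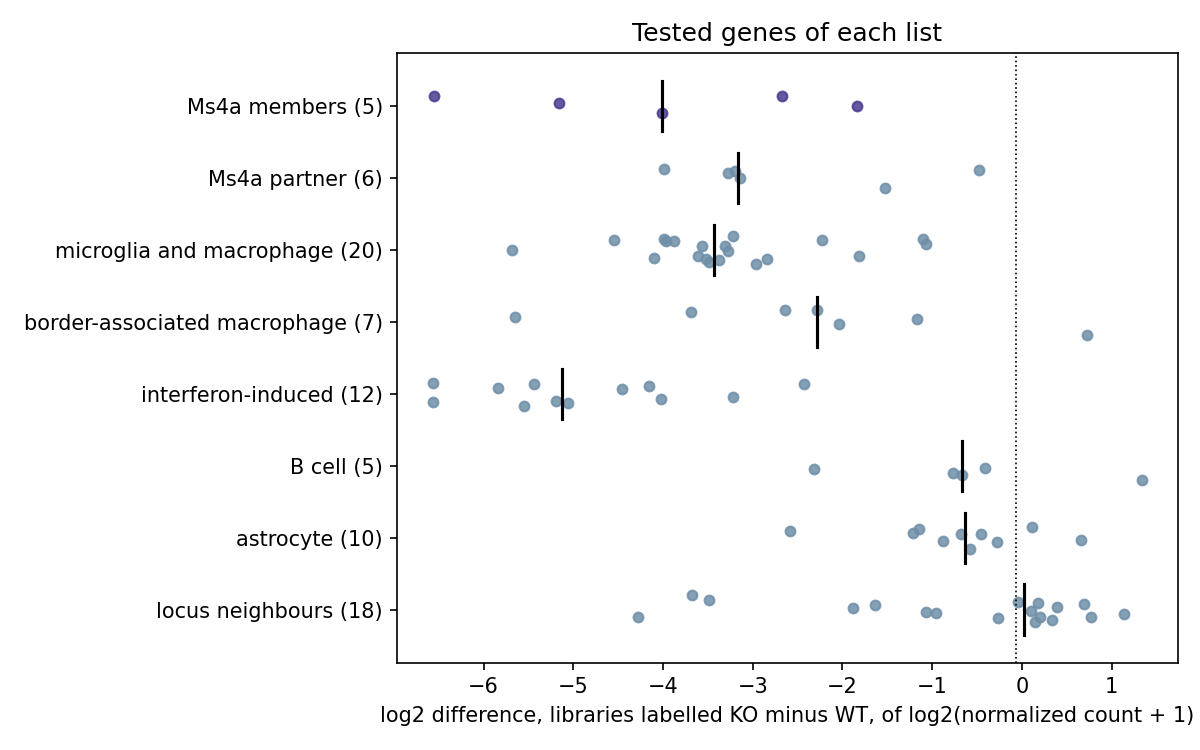
Difference in log2(normalized count + 1), KO-labelled libraries minus WT, with 1 point per tested gene for the Ms4a members and each gene list, and a dotted line at the median of all tested genes (-0.07). The members run from -6.55 to -1.84, the microglia and macrophage list has a median of -3.43, the interferon-induced list -5.13 and the astrocyte list -0.63.

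Of the relatives outside the 8 members, Ms4a14 is the other Ms4a gene of the cluster with a row, at 6.40 and 0.92 normalized counts in WT against 1.07 and 0 in the KO-labelled libraries. Its groups overlap (limma adjusted p = 0.581). Tmem176a and Tmem176b, related 4-pass proteins encoded on another chromosome, were far more abundant. Tmem176a was at 6918 and 8438 in WT against 1776 and 665 in the KO-labelled libraries (DESeq2 adjusted p = 4.74e-04, limma adjusted p = 0.161), and Tmem176b at 11328 and 13334 against 5656 and 2062 (DESeq2 adjusted p = 0.0731, limma adjusted p = 0.266). DESeq2 thus called 1 of these 3 genes, where it called 3.63% of all tested genes lower, and limma and edgeR called 0. Unadjusted, limma had 2 of the 3, beside 3032 of all 22094 tested genes.

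Around the cluster, 2 genes were called, by DESeq2 alone. The 20 nearest listed protein-coding genes on either side reach 328.1 kb to the left and 948.9 kb to the right. Of the 18 tested, 6 were lower in both KO-labelled libraries and 5 higher, shares near the 25.4% and 22.5% of all tested genes with these patterns, and 7 overlapped. Their median log2 difference was 0.03. The 3 most abundant, the splicing factor gene Prpf19, Dtx4 and the lipid transfer gene Osbp, differed by 0.20, 0.18 and 0.39. DESeq2 called 2 of the 18 lower, where it called 3.63% of all tested genes lower, and limma and edgeR called 0. The 5 neighbours at an unadjusted limma p under 0.05 were all lower, as were 2028 of the 3032 such genes over the whole table. Both genes called by DESeq2, named after their values were seen, are known from myeloid cells. Slc15a3, a transporter of the lysosome, was at 195 and 660 against 7.49 and 39.7, and Mpeg1, the pore-forming perforin-2 of macrophages, at 398 and 1487 against 80.3 and 56.8. Both were higher in WT replicate 2, as Ms4a7 and Ms4a6d were. Inside the cluster, the long noncoding RNA AW112010 was at 32.0 and 41.4 in WT against 1.07 and 0.901 in the KO-labelled libraries (DESeq2 adjusted p = 0.00611, limma adjusted p = 0.147). Gm6501 stood the other way, at 8.54 and 2.76 in WT against 14.99 and 43.3 (DESeq2 adjusted p = 0.309), and Gm336 overlapped, at 21.3 and 7.36 against 7.49 and 19.8. Gm38275 had reads in WT replicate 2 only, at 1.84 normalized counts, under the limit.

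**Figure D5:**
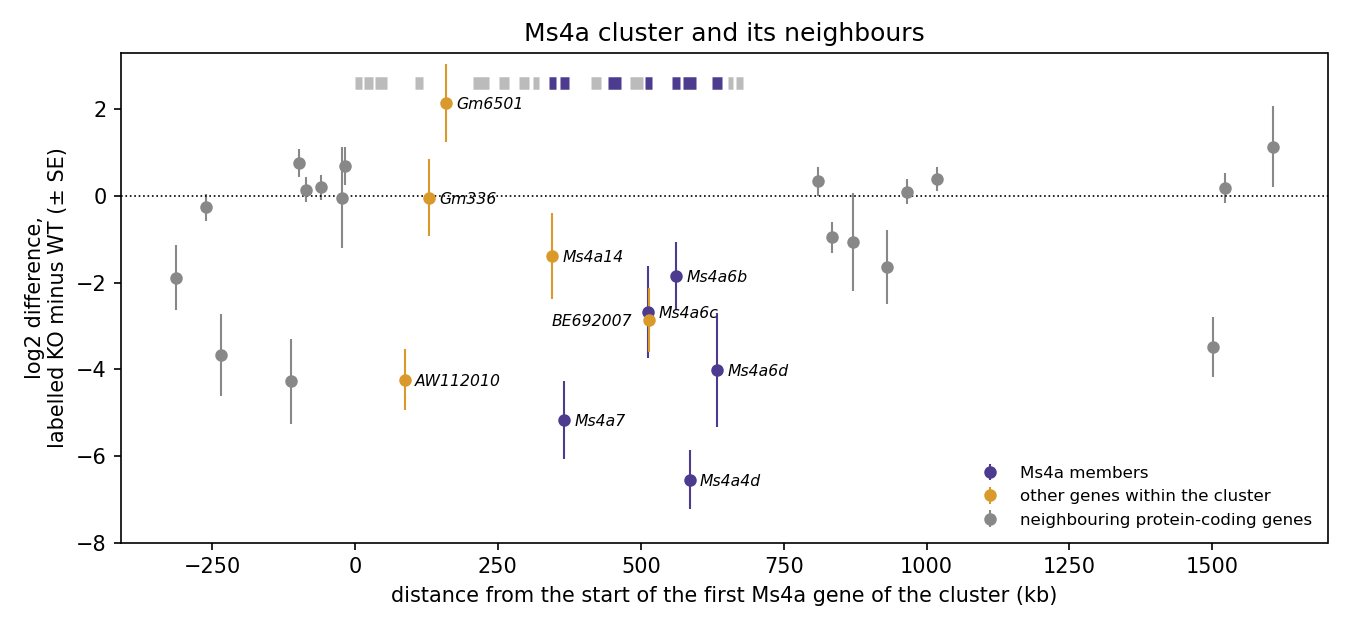
Difference in log2(normalized count + 1) with its SE, KO-labelled libraries minus WT, against the distance in kb from the start of the first Ms4a gene, for the tested members, other listed genes inside the cluster and neighbouring protein-coding genes. Blocks at the top show the annotated Ms4a genes, those with a row in the table in purple. The members lie between -6.55 and -1.84, while the neighbours scatter on both sides of 0 with a median of 0.03.

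Overlaps in the annotation and shared sequence limit some of these values. Ms4a4d, Ms4a6d and Ms4a7 overlap no other annotated gene. Ms4a6c lies opposite BE692007, a processed transcript at 5.33 and 7.36 normalized counts in WT and 0 in both KO-labelled libraries, and since the strand of the counting is not stated the reads of the pair cannot be told apart. Ms4a6b lies opposite the antisense gene Gm19261 and Ms4a4c opposite the pseudogene Gm5692. Of all 50-base windows of the transcripts, 0.546% of those of Ms4a4d, 2.31% of Ms4a6d, 3.44% of Ms4a6b, 5.85% of Ms4a6c and 8.19% of Ms4a4c also occur in another Ms4a gene, and 0 of those of Ms4a7. Counting all genes, 51.4% of the Ms4a6c windows are shared, so that its few reads are uncertain as well. For Ms4a4c the shared windows lie in Ms4a4b and Ms4a4d, which leaves its 2 reads uncertain.

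The genes with the profile nearest to that of the 6 summed members were sought among the 12868 genes with a mean of 50 or more, as the smallest difference between shares over the 4 libraries (0 for the same shares, 1 for none in common). Among the nearest were Adgre1 (0.011), Cxcl5 (0.0139), Wfdc2 (0.0192) and Slc39a4 (0.0254). Sought for single members, a search added after the values were seen, the nearest profile was that of C3, the central complement component, for Ms4a4d (0.0118), followed by Iigp1 (0.0175), an interferon-inducible GTPase, and Lcn2 (0.0203), the iron-carrier binding lipocalin. For Ms4a7 it was Siglec1 (0.0054) and then the scavenger receptor Marco (0.0296). For Ms4a6d it was Stab1 (0.0296) and then the scavenger receptor Cd36 (0.0335). With 4 libraries such likeness is weakly set, and it was computed on the same values that chose the family.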

How the data were processed

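RNA-seq libraries of primary astrocytes were analysed, 2 labelled WT and 2 labelled tet1-/-; genotype and replicate number were read from the sample labels. The reads were aligned to mm10 according to the submitters' processing notes; the aligner, the counting program and its strand setting are not given in the sources used here. Although the deposited file is named for FPKM, its signal values (1 for each gene in each library) are normalized counts that the authors obtained with a size factor, 0.937 and 1.09 for WT and 0.934 and 1.11 for KO. The planned test had been written for such values. Within a tolerance of 0.001, 100% of the values came out as whole reads, which were used as recovered reads. The authors also deposited genotype means, log2 fold changes and p-values, which were not used.

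The members and gene lists were chosen with earlier results of these data known. limma 3.58.1 in R 4.3.3 (lmFit, eBayes with a variance trend) was run on log2(normalized count + 1) for the 22094 genes whose mean reached 1; p-values were adjusted by Benjamini-Hochberg and the threshold was 0.05. The recovered reads were tested with edgeR 4.0.16 (quasi-likelihood) and DESeq2 1.42.0, whose counts per list were added after the data were seen. The p-values measure only the spread between these samples, and a single gene compared exactly, 2 against 2, cannot go below a permutation p of 0.333 (two-sided). FPKM was computed from recovered reads, gene length and reads on genes. Intervals are 95% exact binomial or conditional intervals of counts. Named genes were the 8 members, other listed Ms4a genes, the 3 most abundant of each list, the 5 nearest profiles and Tet1 (some genes that this rule names are not reported here); other partner genes, called neighbours, genes inside the cluster and Xist were added after their values were seen. Motifs were chosen after the promoters were seen. Promoters came from RefSeq (GRCm38.p6) and gene positions from GENCODE M21, in which 6 of 6 members have the deposited start and end. Tests were checked on simulated data. Tables were made in Python 3.11.15 (pandas 2.3.3, numpy 2.4.6, scipy 1.17.1) and plots in matplotlib 3.10.9.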

Additional observations from a re-analysis of the deposited data

How the results depend on the processing

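The log2 differences of the 5 tested members were below 0 under all 68 alternatives. This sign is no support, since each member has both KO-labelled values below both WT values. Leaving out a library, another pseudocount or filter, or the replicate block could therefore not change it. For Ms4a4d, at 0 in both libraries labelled KO, the value ran from -9.86 (pseudocount of 0.1) to -4.29 (pseudocount of 5). The summed members ran from -5.46 to -4.18 when 1 library was left out. With a mean of at least 10 normalized counts, 3 members were left to count, all lower in both libraries labelled KO, in place of 5. The number of genes with an adjusted p under 0.05 was 0 with limma and edgeR and 1088 with DESeq2. DESeq2 called 15 of the 20 tested genes of the microglia and macrophage list and 2 of 7 border-associated genes. It called 4 of 6 partner, 12 of 12 interferon-induced, 1 of 3 other Ms4a family and 2 of 18 neighbour genes. All of these were called lower, beside 3.63% of all tested genes called lower and 1.29% higher. In each list limma called 0, and the cause was not tested.

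When 1 library was left out, the list medians ran from -4.09 (without WT replicate 1) to -2.61 (without WT replicate 2) for microglia and macrophages, from -3.21 to -2.07 for border-associated macrophages, from -1.61 (without KO replicate 1) to 0.0808 for astrocytes and from -3.39 to -2.43 for the partners. The border-associated median was -3.76 with a pseudocount of 0.1, -1.06 with 5, -4.23 in edgeR and -4.22 in DESeq2. The B cell list had no gene left at a mean of at least 10.

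Replicate numbers are shared by the genotypes, and the deviations of same-numbered libraries correlated at -0.08 over 22094 genes. With 2 libraries a group this is a single comparison, which cannot show whether same-numbered libraries share an isolation or a batch. With the replicate block limma called 0 genes, and the summed members stayed at -4.82. With 2 libraries a group and 21 Ms4a reads in the libraries labelled KO, depth limits the folds of Ms4a6b and Ms4a6c and gives none for Ms4a4c.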
